A study of Mus musculus with 4 samples.

Results

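The genes described are 34 named members of glycolysis and of the response to low oxygen, taken by gene name from the probe annotation of the arrays, out of 27382 genes on the array. All 34 had a probe, 64 probes in all, and 62 of these probes passed the filter on dim signals, so that each of the 34 genes entered the fit. Gapdh had no probe under its own name and was read from 1 probe whose name carries its gene ID.

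Messenger RNA was measured in neurospheres, floating spheres of cultured neural stem cells kept without serum and with EGF. Neurospheres of 2 lines mutant for Dll1, called Dll1-3 and Dll1-5, were set against wild-type neurospheres, all from 129/Sv mice crossed with C57BL/6. Dll1 encodes Delta-like 1, a ligand of Notch receptors, and the series concerns its loss in neural stem cells and glioblastoma. Each of 4 arrays carried mutant RNA in one colour and wild-type RNA in the other, with 2 arrays per line, replicate 1 and replicate 2, whose dyes were swapped.

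The design text describes 2 biological replicates, each a pool of 3 preparations and each dye-swapped. With 4 arrays this was read as 1 dye-swapped pool per line, which gives n = 2 lines, but the labels leave unstated if both arrays of a line carried identical pools, and every n, SD and p given here rests on that reading. The labels describe wild-type cells beside each line; whether both lines shared 1 wild-type pool, which part of Dll1 is lost, and how the 2 lines differ are not stated in the labels, nor are the oxygen level, cell density or passage of the cultures. Each value is the log2 of mutant RNA over wild-type RNA, where 1 is 2-fold. For a line its values on both arrays are given, and for both lines the mean with the SD between the line means. The RNA came from whole cultures, so fewer cells of a type and less RNA per cell cannot be told apart.

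Glycolysis splits glucose into pyruvate, which lactate dehydrogenase turns into lactate or mitochondria oxidise. In low oxygen the prolyl hydroxylases no longer mark HIF-1alpha for destruction, it pairs with ARNT, and the pair binds short sites with the core ACGTG or GCGTG next to many glycolytic genes, VEGF and genes of the hydroxylases themselves. Neural stem cells and glioma cells are both known for high rates of glycolysis.

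Because many members are known HIF targets, the core letters of such sites were looked for in promoters. RefSeq promoter windows of assembly GRCm38.p6, 250 bases before to 50 bases after a start, were at hand for 30 members. Either ACGTG or GCGTG, on either strand, lay in at least 1 window of 27 of these 30 members, or 90.0%, beside 46.7% of 27025 genes and 52.3% of 17492 protein-coding genes. Counted by window, ACGTG was in 53.5% of 43 member windows and in 19.6% of all 32851 windows, and GCGTG was in 55.8% and 32.4%. ACGTG also lies inside the E-box CACGTG, which was in 14.0% of member windows and 7.2% of all. The median GC content was 62.3% in member windows, 56.3% over windows of protein-coding genes and 52.7% over all windows, and its part in these shares was not tested.

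The windows printed here belong to members that passed a 2-fold count described later: 2 that were higher in both lines (Hk2 and Ero1l), 1 that was lower in both (Pfkfb3) and 2 that differed between the lines (Egln3 and Pdk1). Where a gene had several starts, the window with the most matches is shown. Each reads along the gene's strand, and capitals mark either motif or its reverse complement (CACGT for the first motif and CACGC for the second). Hk2 is at chr6:82774405-82774704 (minus strand), Ero1l, now Ero1a, at chr14:45318523-45318822 (minus), Pfkfb3 at chr2:11502041-11502340 (minus), Egln3 at chr12:54203825-54204124 (minus) and Pdk1 at chr2:71872974-71873273 (plus).
Hk2: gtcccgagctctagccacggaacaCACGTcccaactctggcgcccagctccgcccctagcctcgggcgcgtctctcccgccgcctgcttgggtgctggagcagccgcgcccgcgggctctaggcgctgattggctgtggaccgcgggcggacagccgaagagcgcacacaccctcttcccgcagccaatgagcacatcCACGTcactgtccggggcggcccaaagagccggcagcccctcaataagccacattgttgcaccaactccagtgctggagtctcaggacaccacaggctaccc
Ero1l: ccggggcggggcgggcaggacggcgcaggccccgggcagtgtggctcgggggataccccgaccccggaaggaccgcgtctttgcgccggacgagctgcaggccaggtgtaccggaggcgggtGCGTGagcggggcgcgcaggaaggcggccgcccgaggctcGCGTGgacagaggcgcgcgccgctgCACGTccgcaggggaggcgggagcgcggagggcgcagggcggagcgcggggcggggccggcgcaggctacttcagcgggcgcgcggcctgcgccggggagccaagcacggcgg
Pfkfb3: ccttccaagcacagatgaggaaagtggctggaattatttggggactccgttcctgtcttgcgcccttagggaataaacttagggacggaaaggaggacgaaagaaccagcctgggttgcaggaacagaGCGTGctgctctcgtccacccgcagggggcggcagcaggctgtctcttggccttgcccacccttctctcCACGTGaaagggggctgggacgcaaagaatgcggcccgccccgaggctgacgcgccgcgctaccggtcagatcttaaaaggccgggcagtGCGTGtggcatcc
Egln3: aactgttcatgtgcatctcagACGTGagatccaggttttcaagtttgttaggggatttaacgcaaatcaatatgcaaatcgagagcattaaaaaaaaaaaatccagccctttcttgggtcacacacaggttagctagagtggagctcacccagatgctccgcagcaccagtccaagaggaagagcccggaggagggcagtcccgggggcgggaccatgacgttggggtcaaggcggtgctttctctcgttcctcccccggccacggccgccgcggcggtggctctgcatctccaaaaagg
Pdk1: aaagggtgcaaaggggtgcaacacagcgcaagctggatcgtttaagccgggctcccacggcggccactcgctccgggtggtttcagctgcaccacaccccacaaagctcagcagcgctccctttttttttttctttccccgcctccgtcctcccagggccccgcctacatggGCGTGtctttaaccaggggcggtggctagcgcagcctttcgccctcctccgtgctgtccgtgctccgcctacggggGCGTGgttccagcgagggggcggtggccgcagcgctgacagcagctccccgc
The Hk2 window held matches at -226 and -52 from the start, that of Ero1l at -128, -88 and -63, and that of Egln3 at -229. In the Pfkfb3 window they were at -122, -53, -52 and 38, of which -53 and -52 are the 2 strands of one CACGTG, and in the Pdk1 window at -78 and -2. The 1 lower gene and the other genes shown all held such letters, as did 90.0% of members with a window. The window with the most matches was printed, so these windows cannot set lower and higher genes apart. Ndrg1 had no window, and that of Slc16a1, also past a 2-fold count, is not printed. A match is a description of letters, not evidence of binding.

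Dll1 itself, checked against the labels, was lower on every array and read -3.31 and -3.22 in Dll1-3 and -1.65 and -1.64 in Dll1-5. Of 10 neural stem cell markers, 10 were well above background in wild-type and in mutant RNA on every array. Of 9 microglia markers 6 were so in wild-type and 5 in mutant RNA on every array, at summed net signals of 666 to 935 and 581 to 966, with Itgam in no channel. Of 3 erythroid markers on the array 1 was so in both and Alas2 in no channel. These counts stand beside 80.0% to 82.1% of all probes well above background in a single channel. The 8 microglia markers tested were dim, with a median log2 intensity of 6.58 beside 7.64 over all genes tested, so their count does not establish that microglia were present. Marker lists of the culture's own cell types moved with the groups: the median log2 ratio was -0.87 over 10 neural stem cell markers, -0.77 over 5 astrocyte markers, -1.06 over 6 neuron markers and -0.52 over 5 oligodendrocyte markers. The summed net signal of the neuron list, for example, ran from 8056 to 20554 in wild-type channels and from 2429 to 9505 in mutant channels. Net signals are not normalised between dyes: the median of Dll1-3 mutant RNA was 165 in Cy5 and 87 in Cy3. Each range thus also spans the dyes. Map2 was the brightest tested gene of the neuron list, and Rbfox3 and Snap25 averaged 0.08 and 0.09 over both lines. The part of these marker shifts in the results below was not tested. Medians over the genes of single chromosomes lay between -0.09 and 0.06 in Dll1-3 and between -0.06 and 0.08 in Dll1-5.

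Of the 34 members, Hk2, Ndrg1 and Ero1l were at least 2-fold higher on all 4 arrays, and Pfkfb3 was at least 2-fold lower on all 4. These 3 higher members compare with 1.69% of all genes past the same rule, and the 1 lower member with 2.75%. The members were brighter than those genes, with a median log2 intensity of 9.87 beside 7.64 over all genes tested. The background correction compresses ratios of dim genes, and its part in this and later all-gene shares was not tested. Taken by sign alone, 14 members were above 0 on all 4 arrays (24.1% of all genes were), 11 were below 0 on all 4 (26% of all genes) and 9 had mixed signs. The median of the members was 0.15 over both lines, 0.06 in Dll1-3 and 0.13 in Dll1-5, beside 0.01 over all 23100 genes tested. The module as a whole therefore held members well above 0 and members well below 0.

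With 2 line means tested against 0 by limma, no member of 34 had an adjusted p under 0.05, and neither did any gene of 23100, 0% in all. The adjusted p of 0.075 given below for several genes is a single value that the adjustment assigns to genes of unequal p. Among them the unadjusted limma p was 0.00092 for Pfkfb3 and 0.0027 for Vhl, so the shared value does not rank them. At an unadjusted p under 0.05 there were 8 members higher, where 12% of all genes were, and 7 members lower, where 15.5% of all genes were. The higher ones were Hk2, Tpi1, Pgam1, Eno1, Ldha, Slc16a1, Vegfa and Ero1l, and the lower ones Slc2a1, Slc2a3, Hk1, Pfkm, Pfkfb3, Ldhb and Ddit4. This split of 8 and 7 became 11 and 5 when arrays were centred on the median (13.6% and 12.8% of all genes) or the scanner's ratio was used (13.2% and 15.6%). Other settings moved the count past the adjusted threshold: 3 members (Ero1l, Hk2 and Pfkfb3) at a background offset of 10 and 18 when the 4 arrays were treated as separate samples. Those 18 stand beside 7726 of all genes.

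**Figure D1:**
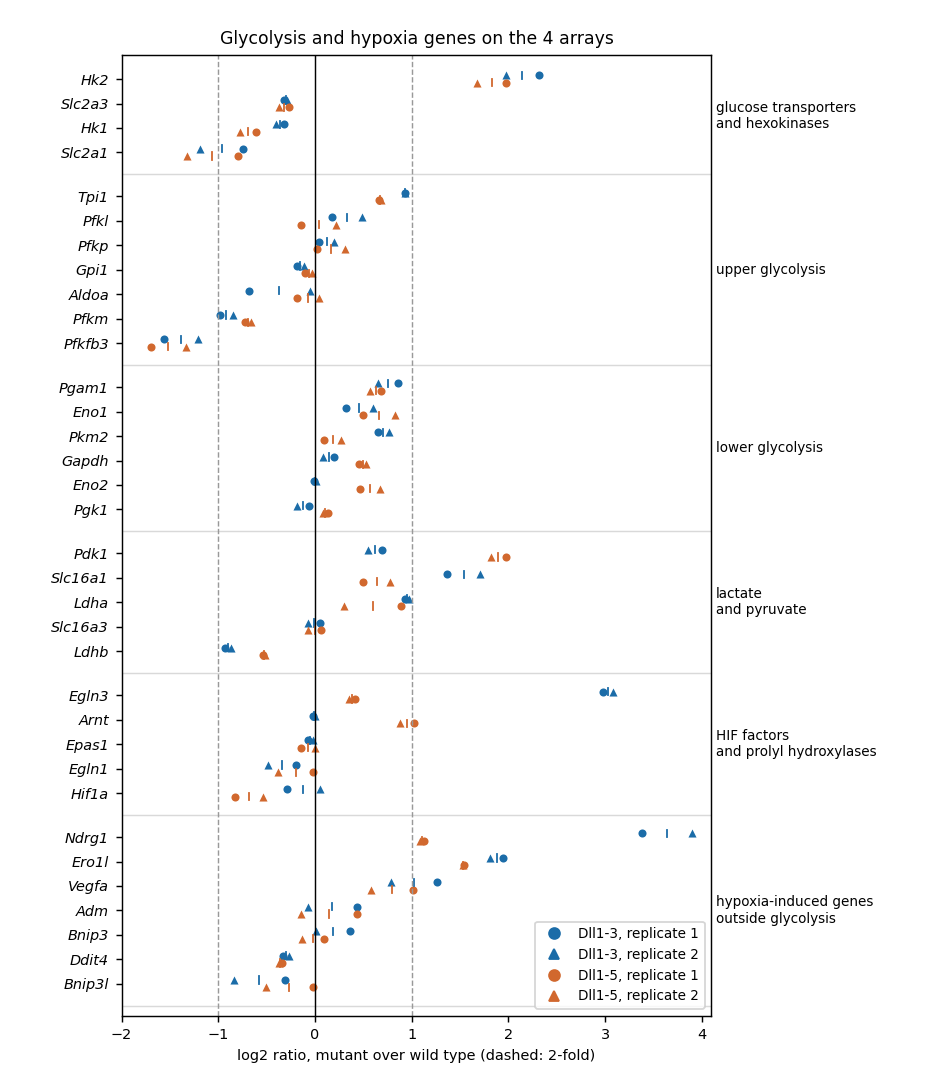
Log2 of mutant over wild type (x axis) of each of the 34 genes (y axis, grouped by role) on the 4 arrays. Circles are replicate 1, triangles replicate 2, blue Dll1-3 and orange Dll1-5; short bars are line means and dashed lines mark 2-fold. Hk2 and Ero1l lie right of 2-fold and Pfkfb3 left of it in both lines, and the Dll1-3 arrays of Ndrg1 and Egln3 lie between 2.98 and 3.90.

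At the entry of the pathway, both glucose carriers and Hk1 lay below 0 and Hk2 far above it. Hk2, the hexokinase known to be induced by low oxygen and abundant in many tumours, read 2.31 and 1.98 in Dll1-3 and 1.98 and 1.68 in Dll1-5. All 4 arrays were high and the lines lay close together, with a mean of 1.99 ± 0.22 (SD, n = 2) and an adjusted p of 0.075 in limma. Hk1, the housekeeping hexokinase of brain, was below 0 on all 4 arrays, from -0.32 to -0.78, with a mean of -0.53 ± 0.23. Its 6 probes did not all share this sign, since 2 of the other 5 were just above 0, up to 0.06.

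Slc2a1 encodes GLUT1, the widely expressed glucose transporter and a known HIF target. It read -0.75 and -1.19 in Dll1-3 and -0.80 and -1.33 in Dll1-5, so every array was low and the lines overlapped, at a mean of -1.01 ± 0.07 and an adjusted p of 0.075 in limma. Within each replicate number Dll1-5 was slightly the lower line. Replicate 2 was the lower array in both lines. Such shifts with the dye orientation were shared over all genes (r = 0.70 across genes between the lines, which are not independent replicates). Slc2a3, the neuronal carrier GLUT3, averaged -0.31 ± 0.01 over arrays between -0.27 and -0.38. The median over these 4 genes was -0.42, and only Hk2 was above 0.

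Among the 7 genes of upper glycolysis, down to triose phosphates, the median was -0.11. Pfkfb3 makes fructose 2,6-bisphosphate, the strongest activator of phosphofructokinase, and is known as a gene induced by low oxygen. It read -1.57 and -1.21 in Dll1-3 and -1.70 and -1.34 in Dll1-5. All arrays were below 2-fold down and the lines overlapped, with Dll1-5 slightly the lower within each replicate number. The mean was -1.45 ± 0.09, with an adjusted p of 0.075 in limma. This rests on the brightest of 3 probes, at 11387962 to 11388021 of chromosome 2 in the coordinates of the array files, which name no build. The other 2 probes, at 11398572 to 11399985 and 11406356 to 11408618, read -0.01 and -0.11, and the mean of all 3 probes was -0.52.

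The phosphofructokinase subunits did not share a direction. Pfkm, the muscle subunit, averaged -0.80 ± 0.16 and was low on all 4 arrays, from -0.67 to -0.99. Pfkl, the liver subunit, averaged 0.18 ± 0.21 with 1 array below 0, and Pfkp, the platelet subunit, 0.14 ± 0.03 with every array above 0.

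Tpi1, triose phosphate isomerase, read 0.93 and 0.93 in Dll1-3 and 0.66 and 0.68 in Dll1-5. Its lines were both high but did not overlap, at a mean of 0.80 ± 0.18 and an adjusted p of 0.086 in limma. Gpi1, glucose phosphate isomerase, averaged -0.11 ± 0.06, and the aldolase gene Aldoa -0.22 ± 0.21, with a second Aldoa probe at 0.03 and saturated mutant spots on 2 arrays. Both turned positive, to 0.37, when the arrays were centred on the median in place of loess.

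In lower glycolysis, from there to pyruvate, 5 of 6 genes had a mean above 0 and the median was 0.38. Pgam1, phosphoglycerate mutase, averaged 0.69 ± 0.09, from 0.57 to 0.86 on the arrays. Eno1, the general enolase, read 0.32 and 0.60 in Dll1-3 and 0.50 and 0.82 in Dll1-5, a mean of 0.56 ± 0.14. Its lines overlapped above 0, with Dll1-5 the higher within each replicate number. Pkm2, the muscle-type pyruvate kinase gene, was higher in Dll1-3, at 0.65 and 0.76, than in Dll1-5, at 0.09 and 0.27. The reverse held for Eno2, the neuronal enolase, at -0.01 and 0.01 in Dll1-3 and 0.47 and 0.67 in Dll1-5. This Eno2 probe was dim, with a mean log2 intensity of 6.89. A second, at 6.35, averaged -0.22 in Dll1-3 and 0.68 in Dll1-5, with wild type well above background on 1 of 4 arrays.

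Gapdh, glyceraldehyde phosphate dehydrogenase, read 0.20 and 0.08 in Dll1-3 and 0.46 and 0.53 in Dll1-5. All arrays were above 0 and the lines did not overlap, with a mean of 0.32 ± 0.25 and an adjusted p of 0.29 in limma. The scanner software's own ratio put it at 0.94 and an offset of 10 at 0.61. This probe was dim, with a mean log2 intensity of 6.38. Another 2 probes, filed under other names but listing the Gapdh transcript, were far brighter, at 13.3 and 13.7, and read 0.58 and 0.54. They were not used because their names are not those of Gapdh, and near-identical copies of this gene make any single probe uncertain. Pgk1, phosphoglycerate kinase, on chromosome X, stood near 0 at -0.01 ± 0.16 and turned positive under several settings.

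Among the genes that handle pyruvate and lactate the median was 0.77 over 5. Ldha, the lactate dehydrogenase subunit that favours lactate, read 0.93 and 0.97 in Dll1-3 and 0.89 and 0.30 in Dll1-5. On the probe used, every array was above 0 and replicate 2 of Dll1-5 was the low one, at a mean of 0.77 ± 0.25, with 1 saturated mutant spot. A second, dimmer probe without saturated spots averaged 0.84. It read 1.23 and 1.17 in Dll1-3 and 0.44 and 0.54 in Dll1-5. On both probes the arrays of Dll1-3 lay above those of Dll1-5, on the probe used only narrowly (0.93 against 0.89). Ldhb, the subunit of oxidative tissues, was the mirror: -0.93 and -0.87 in Dll1-3 and -0.54 and -0.51 in Dll1-5, all below 0, a mean of -0.71 ± 0.26.

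Slc16a1 encodes MCT1, which carries lactate and pyruvate across the membrane. It read 1.37 and 1.71 in Dll1-3 and 0.50 and 0.78 in Dll1-5, high throughout with no overlap of the lines, and averaged 1.09 ± 0.64. Of its other 2 probes one read 1.13 and the dimmest 0.35, and both were higher in Dll1-3 than in Dll1-5. Slc16a3, the lactate exporter MCT4, stood at -0.01 ± 0.00, with replicate 1 above and replicate 2 below 0 in both lines. Its sign turned with the scanner's ratio, the deposited table and 2 of the single arrays left out.

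Pdk1, the kinase that shuts pyruvate dehydrogenase, read 0.69 and 0.54 in Dll1-3 and 1.97 and 1.82 in Dll1-5. Both arrays of Dll1-5 lay above both of Dll1-3, by 1.28 between line means, and the mean over both lines was 1.26 ± 0.90. A second, dimmer probe read 1.24 and 1.07 in Dll1-3 and 1.04 and 1.06 in Dll1-5. Both probes thus put Pdk1 above wild type in both lines, but on the dimmer one Dll1-3 was slightly the higher line, so the order of the lines rests on 1 probe.

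Among the oxygen sensors and HIF factors the median was -0.06 over 5. Hif1a, the oxygen-regulated subunit, read -0.29 and 0.05 in Dll1-3 and -0.83 and -0.54 in Dll1-5. Dll1-5 was the lower line with no overlap, and the mean of -0.40 ± 0.40 had an adjusted p of 0.33 in limma. HIF-1alpha is known to be set mainly at the level of the protein, which was not measured here. Epas1, the gene of HIF-2alpha, was dim, with mutant RNA well above background on 3 of 4 arrays, and read -0.08, -0.02, -0.15 and -0.00.

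Arnt, the constant partner of both alpha subunits, was at -0.03 and 0.00 in Dll1-3 and 1.02 and 0.88 in Dll1-5. Only Dll1-5 was high, by 0.96 over Dll1-3, just short of the gap of 1 used below. Its wild-type channel lay between 9.42 and 9.64 on all 4 arrays, and the mutant channel at 9.39 and 9.51 in Dll1-3 and 10.57 and 10.52 in Dll1-5. A second probe read 0.41 in Dll1-3 and 0.83 in Dll1-5, while the other 2, of dimmer signal, lay between -0.13 and 0.06 in either line.

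Egln3 encodes PHD3, the prolyl hydroxylase that is itself a strongly induced HIF target. It read 2.98 and 3.08 in Dll1-3 and 0.42 and 0.35 in Dll1-5. Dll1-3 was far above Dll1-5, by a log2 difference (Dll1-5 minus Dll1-3) of -2.65, and the mean of 1.71 ± 1.87 had an adjusted p of 0.33 in limma. Wild-type channels lay between 6.44 and 6.84, so that the gap came with mutant channels of 9.82 and 9.52 in Dll1-3 and of 6.92 on average in Dll1-5. Egln1, the constitutive hydroxylase PHD2, averaged -0.27 ± 0.10 and was below 0 on all 4 arrays. The scanner's ratio put Egln3 at 2.71 over both lines.

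Outside glycolysis, the 7 known hypoxia-induced genes had a median of 0.16. Ero1l makes the oxidase that drives disulfide formation in the endoplasmic reticulum. It read 1.94 and 1.81 in Dll1-3 and 1.54 and 1.53 in Dll1-5, all past 2-fold with Dll1-3 the higher line, at a mean of 1.71 ± 0.24 and an adjusted p of 0.075 in limma. A second, dimmer probe read 1.20 in Dll1-3 and 0.56 in Dll1-5. The array files place both probes on unanchored sequence of chromosome 14.

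Ndrg1, a stress and differentiation gene induced by low oxygen, was at 3.38 and 3.90 in Dll1-3 and 1.12 and 1.08 in Dll1-5. All 4 arrays were past 2-fold, and mutant channels lay at 9.99 and 9.76 in Dll1-3 and 7.37 and 7.10 in Dll1-5. Its wild-type channel stood well above background on 2 of 4 arrays and on neither of Dll1-5, where mutant RNA was at least 2.15-fold higher than wild type. The Dll1-5 ratio is thus a lower bound, and the size of the difference between the lines is not defined. The mean of 2.37 ± 1.80 had an adjusted p of 0.21 in limma and rested on 1 probe; it was 3.37 at an offset of 10 and 4.58 with the scanner's ratio.

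Vegfa, the angiogenic growth factor VEGF-A, read 1.26 and 0.79 in Dll1-3 and 1.02 and 0.58 in Dll1-5. Every array was above 0, the lines overlapped, and the mean was 0.91 ± 0.16 with an adjusted p of 0.079 in limma. Its other 2 probes were also above 0, at 2.26 in Dll1-3 and 1.25 in Dll1-5 for one and 1.41 and 0.38 for the other. On these 2 probes the arrays of the lines did not overlap. On the brightest probe they did, though Dll1-3 was the higher line within each replicate number, that is, within each dye orientation. In all 3 probes Vegfa was higher in the mutant than in wild type.

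The other hypoxia-induced members were low or near 0. Ddit4, the mTOR inhibitor REDD1, read -0.33 and -0.27 in Dll1-3 and -0.35 and -0.38 in Dll1-5, a mean of -0.33 ± 0.04. Bnip3l, a mitophagy receptor also called NIX, averaged -0.42 ± 0.22 and was below 0 on every array. Its relative Bnip3 averaged 0.08 ± 0.15, and Adm, the vasodilator peptide adrenomedullin, 0.16 ± 0.02, and for Adm the sign went with the dye orientation, at 0.43 on both arrays of replicate 1 and -0.08 and -0.14 on those of replicate 2.

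Single lines had no test, so a gene was counted where each array of a line was at least 2-fold in one direction. In Dll1-3 there were 5 higher members, Hk2, Slc16a1, Ndrg1, Egln3 and Ero1l, where 4.46% of all genes were, and 1 lower, Pfkfb3, where 6.1% were. In Dll1-5 there were 4 higher, Hk2, Pdk1, Ndrg1 and Ero1l, where 3.01% were, and again 1 lower, Pfkfb3, where 3.69% were. Averaging all probes of a gene left 7 higher and 0 lower members in Dll1-3 (3.6% and 4.43% of all genes) and 4 higher and 0 lower in Dll1-5 (2.5% and 2.64%). Centring arrays on the median left 5 higher and 0 lower in Dll1-3 (2.03% and 2.66%) and 3 higher and 0 lower in Dll1-5 (1.29% and 1.67%).

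Between the lines, both arrays of one line exceeded both of the other, with means 1 or more apart, for Ndrg1 and Egln3 on the side of Dll1-3 and for Pdk1 on the side of Dll1-5. Those 2 members compare with 1.66% of all genes higher in Dll1-3 by that rule, and the 1 member with 2.76% higher in Dll1-5. Ndrg1 is counted there by its measured ratios, of which that of Dll1-5 is a lower bound, and Pdk1 by its brighter probe alone. With the scanner's ratio or the deposited table the 3 members became 5, as all genes past the rule went from 4.42% to 10.1% and 10%.

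**Figure D2:**
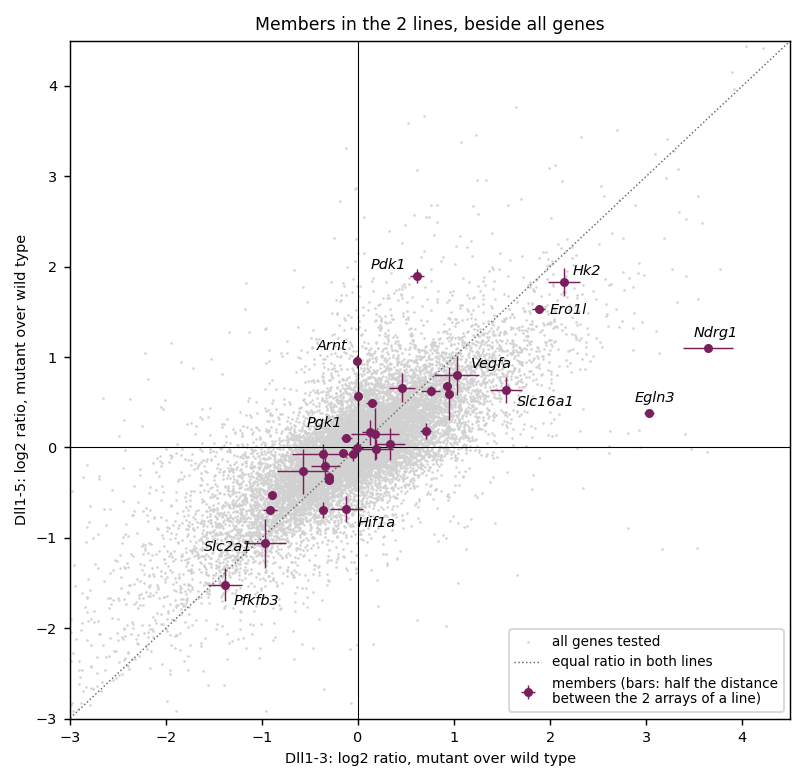
Mean log2 ratio of mutant over wild type in Dll1-3 (x axis) against Dll1-5 (y axis) for the 34 members (purple, with bars that reach from one array of a line to the other) and all genes tested (grey). The dotted line marks equal ratios. Hk2, Ero1l and Pfkfb3 lie near it, Egln3 and Ndrg1 below it and Pdk1 and Arnt above it.

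**Figure D3:**
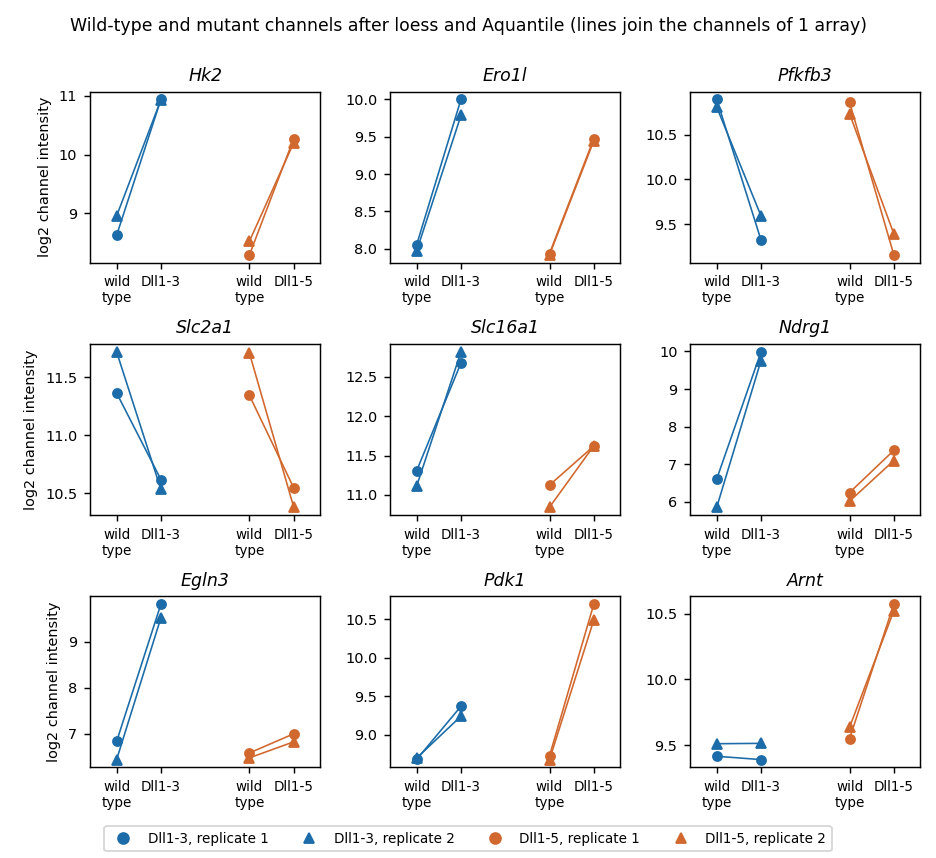
Log2 intensity of the wild-type and mutant channels (y axis, a separate range in each panel) of 9 members on the 4 arrays, after loess and Aquantile; each line joins the channels of 1 array. Wild-type Pdk1 lies between 8.68 and 8.72 on all 4 arrays while mutant Pdk1 is 9.37 and 9.24 in Dll1-3 and 10.70 and 10.49 in Dll1-5.

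The channels were also read singly. For Pdk1 and Egln3 the wild-type channels of the lines overlapped while their mutant channels did not. Hk2 differed from this, with wild-type channels of 8.63 and 8.96 beside Dll1-3 and 8.29 and 8.52 beside Dll1-5, and mutant channels of 10.94 and 10.93 in Dll1-3 and 10.27 and 10.20 in Dll1-5. The Hk2 ratio was thus alike in both lines while both channels were higher on the arrays of Dll1-3. This was not particular to Hk2. Vegfa had wild-type channels of 9.42 and 9.66 beside Dll1-3 and 8.79 and 8.97 beside Dll1-5. Its mutant channels were 10.69 and 10.45 in Dll1-3 and 9.81 and 9.55 in Dll1-5.

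**Figure D4:**
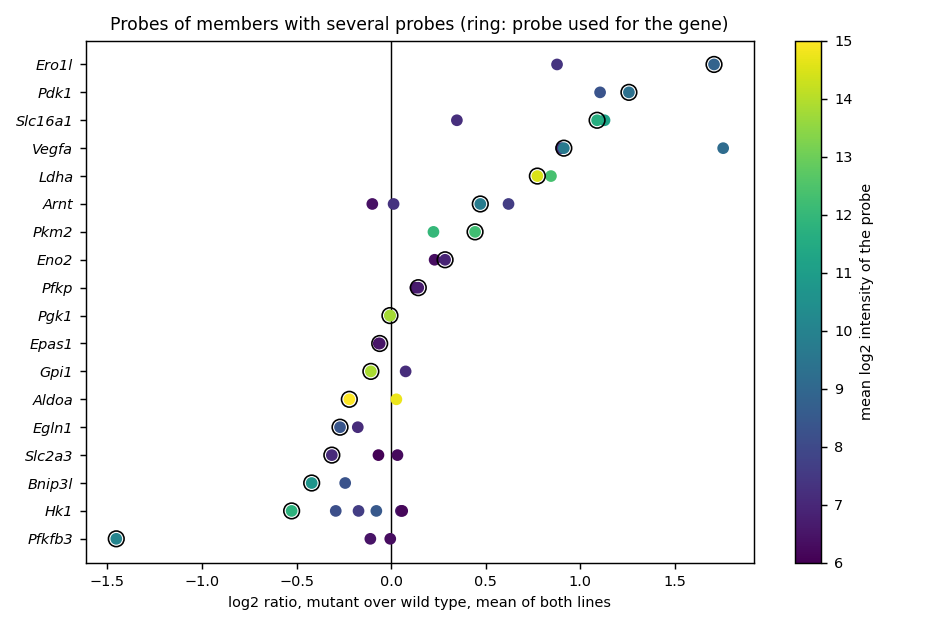
Mean log2 ratio of mutant over wild type over both lines (x axis) for every passing probe of the members with several passing probes (y axis), coloured by the mean log2 intensity of the probe; the ring marks the probe used for the gene. The ringed Pfkfb3 probe at -1.45 stands apart from its other 2 probes near 0, whereas all probes of Pdk1, Slc16a1, Vegfa, Ldha and Ero1l lie above 0.

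Members read by more than 1 probe numbered 18, and in 5 of them the probes differed in sign. The probe used is the brightest by rule. It lay further from 0 than the other passing probes in Pfkfb3, Hk1 and Slc2a3. The same held for Ero1l (1.71 against 0.88), Pkm2 (0.44 against 0.22) and further members, but not for Ldha, Slc16a1, Vegfa, Arnt and Epas1. Hk2, Slc2a1, Ndrg1 and Egln3 had 1 probe each and could not be compared in this way.

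Other genes of these pathways, from lists drawn up for this purpose, were fitted in the same way, and in every list no gene passed an adjusted p of 0.05 in limma. The counts at an unadjusted p stand beside 12% of all genes higher and 15.5% lower. Of 27 further glycolytic enzymes and sugar transporters 26 were tested, with a median of 0.12, and at an unadjusted p under 0.05 there were 5 higher and 4 lower. Aldoc, the brain aldolase, was low on all arrays, at -2.36 and -2.07 in Dll1-3 and -1.28 and -0.98 in Dll1-5. Pfkfb2, a relative of Pfkfb3, read -1.30 and -1.45 in Dll1-3 and -0.66 and -0.83 in Dll1-5, but its 3 other probes ran from -0.75 to 0.05 over both lines. Slc2a4, the insulin-responsive carrier GLUT4, read 0.91 and 0.67 in Dll1-3 and 1.24 and 1.04 in Dll1-5, above 0 throughout. Its probe was dim, with a mean log2 intensity of 6.76 and wild type well above background on 3 of 4 arrays.

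Around pyruvate dehydrogenase 11 of 12 genes were tested, with a median of -0.16, and at an unadjusted p under 0.05 it held 2 higher and 1 lower. Dlat, its E2 core, read 1.34 and 1.08 in Dll1-3 and 0.95 and 0.72 in Dll1-5, and Dld, its E3 subunit, was higher in Dll1-5, at 1.07 and 1.09, than in Dll1-3, at 0.40 and 0.31. Pdp1, the phosphatase that reverses the action of Pdk1, was low in Dll1-3 alone, at -1.40 and -1.42, and at 0.33 and 0.12 in Dll1-5, while its other probe averaged -0.41 over both lines.

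Of 17 genes of gluconeogenesis and glycogen 16 were tested, with a median of 0.00, and at an unadjusted p under 0.05 it held 1 higher and 5 lower. Fbp1, fructose bisphosphatase, was the lowest of all the listed genes, at -3.23 and -2.74 in Dll1-3 and -2.11 and -1.97 in Dll1-5. Pygb, the brain glycogen phosphorylase, was also past 2-fold down on all arrays, from -1.59 to -2.07. Pcx, pyruvate carboxylase, was lower in Dll1-3, at -2.03 and -1.57, than in Dll1-5, at -0.70 and -0.39. Pck2, the mitochondrial phosphoenolpyruvate carboxykinase, went the other way, at 1.67 and 1.75 in Dll1-3 and 0.65 and 0.80 in Dll1-5.

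Of the pentose phosphate pathway 8 of 8 genes were tested, with a median of 0.04 and 0 genes at an unadjusted p under 0.05. Its means ran from -0.42, for the transaldolase gene Taldo1, named after its values were seen and below 0 on all 4 arrays, to 0.27. Of 15 partners in oxygen sensing 15 were tested, with a median of -0.00, 2 higher and 5 lower. Vhl, the ubiquitin ligase subunit that binds hydroxylated HIF-1alpha, was evenly low, at -0.87, -0.90, -1.02 and -1.01, a mean of -0.95 ± 0.09 with an adjusted p of 0.075 in limma.

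Of 31 other hypoxia-induced genes 29 were tested, with a median of 0.07, and at an unadjusted p under 0.05 there were 3 higher and 5 lower. Stc2, a secreted glycoprotein, read 1.99 and 1.86 in Dll1-3 and 0.93 and 1.03 in Dll1-5, with a wild-type channel well above background on 1 of 4 arrays. Tfrc, the transferrin receptor, read 1.45 and 1.57 in Dll1-3 and 0.72 and 0.91 in Dll1-5. Car12, a carbonic anhydrase, was at 1.16 and 1.36 in Dll1-3 and 0.19 and 0.25 in Dll1-5, but its wild-type channel too was well above background on 1 of 4 arrays, and a second probe averaged 0.10 where this one averaged 0.74. By the measured ratios of the probes used, all 3 were higher in Dll1-3 than in Dll1-5, with no overlap of their arrays. For Stc2 and Car12, wild type was not well above background on either array of at least 1 line. Their difference between the lines is thus not defined. Their mutant channels averaged 8.68 in Dll1-3 and 7.23 in Dll1-5 for Stc2, and 7.44 and 6.42 for Car12.

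Other known HIF targets in that list were low. Angptl4, a lipase inhibitor, read -1.98 and -2.34 in Dll1-3 and -1.41 and -1.82 in Dll1-5. Ankrd37 was lower in Dll1-5, at -1.78 and -1.71, than in Dll1-3, at -0.79 and -0.85. Wsb1, a ubiquitin ligase subunit, read -2.79 and -2.73 in Dll1-3 and -0.94 and -1.06 in Dll1-5, but a second probe of it was at -0.06. In this list 16 of 29 genes had a mean above 0, beside 12039 of 23100 over all genes tested. Lying on both sides of 0 was thus not particular to it. The genes named are its extremes by rule and do not describe known targets of HIF as a set.

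**Figure D5:**
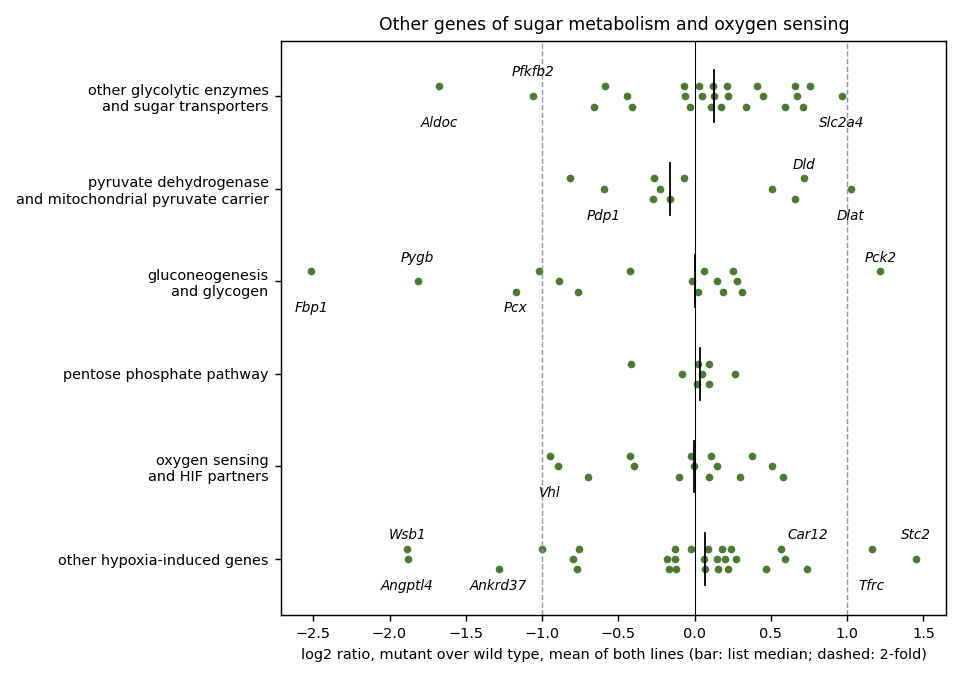
Mean log2 ratio of mutant over wild type over both lines (x axis) for every tested gene of 6 other lists (y axis); bars are list medians and dashed lines mark 2-fold. The medians lie between -0.16 and 0.12, and single genes reach from -2.51 (Fbp1) to 1.45 (Stc2).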

How the data were processed

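Scanned intensity values of 4 two-colour arrays were deposited by the authors, read with Agilent Feature Extraction (version 8.1.1.1 in the submitters' processing notes), with a log10 ratio of Cy5 over Cy3 from that software, per the file headers. A deposited value table, log10 wild type over mutant (r between -0.974 and -0.967 with the scanner's mutant over wild type ratios), served as an alternative; how it was centred is not given in these sources.

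From the deposited intensities, mean signals were corrected by normexp (offset 50, which compresses ratios of dim genes) and normalised by loess (span 0.3) in limma 3.58.1 under R 4.3.3, with version 1.17.8 of data.table, with ratios then expressed as log2 of mutant over wild-type signal. Spots of controls and outliers were dropped, saturated ones kept. Of 41174 probes 34446 were kept, each with the mutant or the wild-type channel well above background on the 2 arrays of at least 1 line. The brightest probe stood for a gene, which left 23101 genes, 23100 of them in both lines. A channel had 80.0% to 82.1% of its probes well above background, and precision is limited by having only 4 arrays. Gene names were updated through the RefSeq table of GRCm38.p6.

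The arrays of a line were averaged, and the 2 line means tested against 0 with lmFit and eBayes, on 1 residual and 1.64 prior degrees of freedom, adjusted by Benjamini-Hochberg over all genes at 0.05. P-values therefore measure only the spread between these 2 lines, which may be technical in part, and leave out that between wild-type pools. Replicate numbers go with the dye orientations. Overlap of the lines was read over all their arrays, not within a dye orientation. Single lines had no test and were described by counts of 2-fold genes. For a probe dim on each array of a group, the bound is the brighter mean over the higher of the lowest well-measured signal and the dim probe's own, from channels after loess and Aquantile, which a dye bias can still touch.

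The fit was run on simulated data, with known ratios put into wild-type signals and independent noise added. These data held no spread of their own between lines and no deviations shared with the dye. They therefore do not test the p-values of this design. The members and lists were chosen with earlier results of these data known. Members 2-fold in a line or apart between lines, Hif1a, Epas1 and Gapdh were to be given on every array, and of each other list the 3 highest and 3 lowest of its genes 2-fold in a line; further members given on every array, such as Arnt and Vegfa, were added after their values were seen. Alternatives covered background, normalisation, filters, probes, moderation, blocks and single arrays left out.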

Additional observations from a re-analysis of the deposited data

Results flagged for a closer look

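Pgk1, the phosphoglycerate kinase gene on chromosome X, was below wild type on both arrays of Dll1-3, at -0.06 and -0.18, and above it on both arrays of Dll1-5, at 0.13 and 0.08. The lines thus lay on opposite sides of 0, with Dll1-5 higher by 0.23 on the log2 scale, and this difference was not tested. A second probe, nearly as bright, read 0.03 and -0.22 in Dll1-3 and 0.16 and 0.01 in Dll1-5, so it did not put both arrays of Dll1-3 below wild type.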

How the results depend on the processing

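Past the adjusted threshold of limma, where the count was 0 of 34, there were 3 members at an offset of 10, 1 with the scanner's ratio, 3 with a trend in the moderation, and, over 4 separate arrays, 18 without and 17 with the replicate block and 17 with line as a random block; leaving out 1 array gave 0 to 6, with 5 without replicate 1 of Dll1-3 and 6 without replicate 2 of Dll1-5. The replicate block here is the dye orientation, whose deviations were shared by both lines (r = 0.70 across genes), and the fits over 4 arrays take the arrays of a line as separate samples. All genes past the threshold under these settings numbered 984, 336, 1203, 7726, 6682 and 6612, and 1678 and 1640 without those single arrays. The median of the members, 0.15, was 0.21 with the scanner's ratio, 0.20 in the deposited table and 0.31 with median centring, where the brightest 5775 genes, which hold 22 of the 34 members, had a median of 0.18 in place of -0.05. The 5 members 2-fold in Dll1-5 were 3 with median centring, and the 3 members apart between the lines were 5 with the scanner's ratio and in the deposited table and 3 to 5 with 1 array left out, 5 without replicate 2 of Dll1-5. Signs turned with median centring for Gpi1 (0.37), Aldoa (0.37), Epas1 (0.030), Ddit4 (0.073) and Pgk1 (0.46); for Pgk1 also without background correction (0.00089), and with 1 array left out (-0.037 to 0.024, positive without replicate 2 of either line); for Slc16a3 with the scanner's ratio (0.039), the deposited table (0.033) and with 1 array left out (-0.039 to 0.025, positive without replicate 2 of either line); and for Bnip3 with 1 array left out (-0.0041 to 0.17, negative without replicate 1 of Dll1-3). The cause of these changes was not tested. A slide block could not be fitted, since each array had its own slide, and Ndrg1 has no value where both channels had to be above background.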
